A study of Mus musculus with 6 samples.

Results

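Hypoxia sensing and its response outside glycolysis was followed through 35 genes, chosen by symbol from a list. The list was set with earlier results of these data known. All 35 were present among the 17006 genes of each deposited table. Of these, 10 encode subunits of the hypoxia-inducible factors (HIF) or proteins that sense oxygen and switch HIF off, and 25 are target genes. The cells were neural stem cells from C57BL/6 mice, cultured from the subventricular zone, a region beside the lateral ventricles where neurons are born in the adult. The labels give no allele and no treatment for either group. The Aged group held 3 libraries from mice of 15 to 18 months, and the Young group 3 libraries from mice of 2 months. Tissue of 5 mice was pooled before it was dissociated, and growth was in a proliferation medium, so the values describe cultured cells and not the niche, and the oxygen level of the culture is not given in the sources used here. The labels do not say whether the libraries of a group came from separate pools, so the p-values measure the spread between these libraries, which may be technical.

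HIF is a pair of proteins. An alpha subunit, HIF-1 alpha (Hif1a) or HIF-2 alpha (Epas1), binds a constant beta partner, ARNT or its neural paralogue ARNT2, and the pair activates genes that help a cell to live with little oxygen. When oxygen is plentiful, prolyl hydroxylases (Egln1, Egln2, Egln3) mark the alpha subunit, the von Hippel-Lindau protein (Vhl) recognises the mark, and the subunit is degraded, while the asparaginyl hydroxylase encoded by Hif1an blocks its activity. HIF-1 alpha is controlled mainly at the level of the protein, so the transcripts measured here do not report its abundance.

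Values are FPKM (fragments per kilobase of transcript relative to the mapped total), which are corrected for transcript length, so levels of different genes can be set side by side. Changes are log2 differences of FPKM + 1, Aged minus Young, from a limma fit over those 11912 genes whose 6 libraries averaged 1 FPKM or more, with p-values adjusted over all of them. A gene was called at an adjusted p under 0.05. Over all tested genes, 86 were called (0.722%), with 39 higher (0.327%) and 47 lower (0.395%) in the Aged group. Depth was modest, at about 5145000 to 5240000 counted reads in Aged libraries and 5300000 to 5460000 in Young libraries by the steps between low values. The groups do not overlap in that estimate, and the part of depth in the results was not tested. Of the 35 genes, 32 passed the filter and 3 (Hif3a, Car9 and Car12) did not.

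All 8 stem and progenitor markers looked at were present, from Gfap (4.26 to 4.86 FPKM in Aged and 3.39 to 3.87 FPKM in Young libraries) to Fabp7 (2669 to 2878 FPKM in Aged and 2662 to 2775 FPKM in Young). None of the 8 was called. Gfap, Sox2 and Olig2 were higher in every Aged library than in any Young one, as were 8.98% of all tested genes. Vim (1522 to 1547 FPKM in Aged, 1645 to 1688 FPKM in Young) and Nes (256 to 264 FPKM in Aged, 269 to 275 FPKM in Young) were lower in every Aged library, as were 8.58%. Of 9 endothelial markers 8 were listed, with a summed level of 3.57 to 3.91 FPKM in Aged and 3.19 to 4.54 FPKM in Young libraries, and Cldn5 and Emcn were at 0 in every Aged library and reached 0.39 and 0.38 FPKM in Young libraries. Single endothelial genes went both ways: Egfl7 was at 2.42 to 2.71 FPKM in Aged and 1.25 to 1.72 FPKM in Young libraries (adjusted p = 0.147), and Flt1 at 0.26 to 0.59 FPKM in Aged and 0.72 to 1.21 FPKM in Young libraries. Of 9 microglial markers 5 were listed (3.16 to 3.54 FPKM in Aged and 3.07 to 4.23 FPKM in Young), with Ptprc at 0.04 FPKM or less in all 6 libraries. The summed levels of 9 fibroblast and pericyte markers (7.33 to 8.35 FPKM in Aged, 6.12 to 7.24 FPKM in Young) and of 5 neuronal markers (16.3 to 19.3 FPKM in Aged, 12.8 to 14.2 FPKM in Young) were higher in each Aged library than in any Young library. Dcn and Rgs5 were at 0 in every Aged library. Among neuronal markers, Tubb3 was at 11.26 to 12.69 FPKM in Aged and 8.83 to 10.41 FPKM in Young libraries (adjusted p = 0.140). Snap25 was at 3.68 to 5.22 FPKM in Aged and 2.66 to 3.26 FPKM in Young libraries (adjusted p = 0.182). Dcx was at 0.46 to 0.80 FPKM in Aged and 0.29 to 0.39 FPKM in Young libraries. Rbfox3 and Syt1 overlapped between the ages, and Syt1 reached at most 0.31 FPKM. Col1a1, a collagen gene of fibroblasts, was called higher, at 2.04, 2.53 and 2.81 FPKM in Aged libraries and 0.54, 0.31 and 0.42 FPKM in Young libraries (adjusted p = 0.0107). Without Col1a1 the other 8 fibroblast and pericyte markers summed to 4.52 to 5.82 FPKM in Aged and 5.70 to 6.70 FPKM in Young libraries, with overlap, so the order of the full sum rests on Col1a1. The other listed collagens were scarce but also higher in every Aged library. Col1a2 was at 0.54 to 0.75 FPKM in Aged and 0 to 0.04 FPKM in Young libraries. Col3a1 was at 0.10 to 0.16 FPKM in Aged and 0 to 0.06 FPKM in Young libraries. Tagln, Myl9 and Acta2 had lower means in Aged libraries, with overlap. The sum over 5 ependymal and choroid markers overlapped (23.9 to 27.8 FPKM in Aged and 20.7 to 25.4 FPKM in Young). Its most abundant genes went opposite ways. Enpp2 was at 13.98 to 15.73 FPKM in Aged and 9.85 to 12.65 FPKM in Young libraries (adjusted p = 0.182). Foxj1 was at 8.49 to 12.15 FPKM in Aged and 10.76 to 12.74 FPKM in Young libraries, with a lower Aged mean. What part these cells have in the values that follow was not tested, and in bulk RNA fewer cells of a type cannot be told apart from less RNA per cell.

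Among the 9 tested HIF subunits and oxygen sensors, limma called 0 genes, with 3 higher and 0 lower at an unadjusted p under 0.05. Over all tested genes, 6.3% were higher and 5.55% lower at that threshold. The median log2 change of these 9 genes was 0.058, beside 0.003 over all tested genes, and 7 of the 9 were above 0, as were 51.0% of all tested genes.

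The order of the subunits was the same in every library. Arnt2, the ARNT paralogue of neural tissue, had the highest level, at 45.05, 45.08 and 46.72 FPKM in Aged libraries and 45.98, 44.74 and 45.96 FPKM in Young libraries. Hif1a came next with 24.04, 28.38 and 26.98 FPKM in Aged libraries, against 28.11, 26.97 and 29.88 FPKM in Young libraries. For both genes the groups overlapped, and the 95% interval of the log2 change ran from -0.09 to 0.09 for Arnt2 and from -0.25 to 0.06 for Hif1a. Epas1 was at 13.87, 13.92 and 13.38 FPKM in Aged libraries and at 14.92, 14.85 and 14.27 FPKM in Young libraries. It was the single tested member with every Aged library below every Young library, a pattern found in 8.58% of all tested genes, but its log2 change of -0.09 ± 0.06 (SE) did not pass (adjusted p = 0.593). The spread of Epas1 within the ages (2.32% of the mean) lay under the 4.91% that read sampling alone would give, so it understates the error. Arnt, the general beta subunit, was at 11.13, 12.43 and 12.53 FPKM in Aged libraries and 10.11, 11.25 and 10.40 FPKM in Young libraries, with overlapping groups and an adjusted p of 0.414. Hif3a, whose product lacks a strong activation domain and can dampen HIF, was at 0.03 FPKM or less in Aged and 0.1 FPKM or less in Young libraries, which is at most about 2.28 estimated reads.

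**Figure D1:**
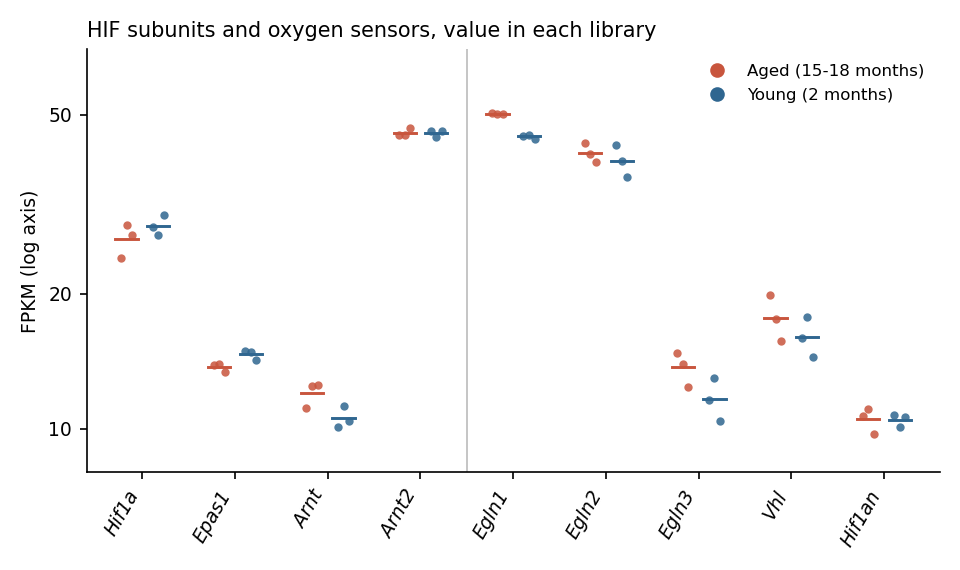
FPKM on a log axis of the 9 tested HIF subunits (left of the line) and oxygen sensors (right), 1 point per library with Aged left of Young for each gene and bars at the group means. Egln1 has 3 Aged points above 50 FPKM and 3 Young points near 45 FPKM, while most other genes overlap between the ages.

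Egln1 encodes PHD2, the main HIF prolyl hydroxylase and itself a HIF target. The gene lies at chr8:124908587-124949254 (GRCm38.p6, as for all coordinates here). It was at 50.46, 50.20 and 50.28 FPKM in Aged libraries, against 44.98, 45.06 and 44.30 FPKM in Young libraries. The groups were far apart for their spread, which was 0.133 FPKM in Aged and 0.418 FPKM in Young libraries (SD, n = 3 each). These SDs lie under the 3.33% that read sampling alone would give at this gene's depth, so they understate its error. The log2 change was 0.16 ± 0.04 (SE, 95% interval 0.08 to 0.25), and at an adjusted p of 0.105 it was not called. Egln3, a hydroxylase gene induced by low oxygen, was at 14.75, 13.96 and 12.41 FPKM in Aged and 11.61, 13.00 and 10.40 FPKM in Young libraries. One Young library lay above the lowest Aged one, and the log2 change of 0.22 ± 0.09 (SE) had an adjusted p of 0.410 (0.14 on the log2 scale without Young 3). Egln2 (41.2 ± 1.97 FPKM in Aged, 39.6 ± 3.21 FPKM in Young), Vhl (17.7 ± 2.09 FPKM in Aged, 16.0 ± 1.64 FPKM in Young) and Hif1an (10.5 ± 0.684 FPKM in Aged, 10.5 ± 0.343 FPKM in Young) overlapped between the ages (SD, n = 3 each). Their adjusted p-values were 0.799, 0.675 and 0.995. A processed pseudogene of Vhl is annotated, so its reads may have been split. By level, Egln1 lay above Egln2, Egln2 above Vhl and Vhl above Egln3 in each library. Egln3 lay above Hif1an in every library but Young 3 (10.40 against 10.64 FPKM).

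Among the 23 tested target genes, limma called 1, Ero1l, which rose. None was called lower, and at an unadjusted p under 0.05 the counts were 11 higher and 0 lower, beside the 6.3% and 5.55% of all tested genes. In 7 of the 23 every Aged library lay above every Young library, and in 0 the reverse held. Over all tested genes these patterns made up 8.98% and 8.58%. Because the list was set with earlier results of these data known, these counts are a description and not an independent test. The median log2 change of the targets was 0.16, with 19 above 0 and 4 below. Per library, the median deviation of the targets from their 6-library mean was 0.049 to 0.121 (log2) in Aged and -0.101 to -0.063 in Young libraries, without overlap, while over all tested genes no library departed by more than 0.005. Most of these differences were small: of the 32 tested members, 21 had a mean in Aged libraries above that in Young libraries by less than a factor of 1.25, 5 by that factor or more, and 6 had a lower one. In simulated data at this depth the fit recovered 26% of genes changed 1.2-fold and 82% of those changed 1.5-fold, so a missing call says little for a change of the smaller size. The simulation gave every gene the same variation beyond sampling (1.98%), so recovery of genes that vary more would be lower.

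**Figure D2:**
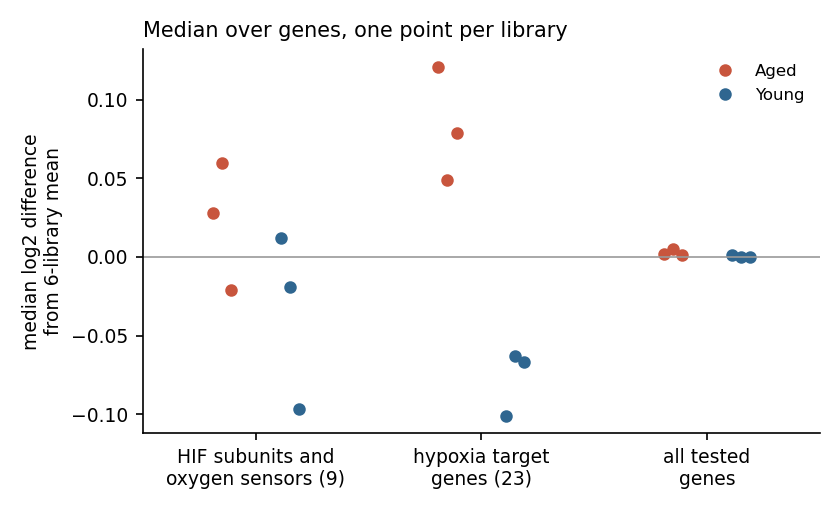
Median over genes of the log2(FPKM + 1) difference from the mean of the 6 libraries, 1 point per library, Aged left of Young. The 23 target genes separate the ages (0.049 to 0.121 in Aged against -0.101 to -0.063 in Young), the 9 subunits and sensors overlap, and all tested genes lie near 0.

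Ero1l encodes the endoplasmic reticulum oxidase that passes oxidising equivalents to protein disulfide isomerase, a reaction that consumes oxygen (gene at chr14:45283087-45318572). It was at 14.65, 16.06 and 15.61 FPKM in Aged libraries, against 10.80, 9.03 and 9.71 FPKM in Young libraries. The lowest Aged value exceeded the highest Young value by a wide margin compared with the SD of 0.720 FPKM in Aged and 0.893 FPKM in Young libraries (n = 3 each). The mean was 1.57 times that of Young libraries, with a log2 change of 0.60 ± 0.08 (SE, 95% interval 0.43 to 0.78) and an adjusted p of 0.0118. It ranked number 34 by p among the 11912 genes. The call held in 12 of 16 alternative fits. Among those that lost it were the fits without limma's variance trend (adjusted p = 0.0691), without Aged 3 (0.0512) and without Young 3 (0.0529), with a log2 change of at least 0.59 in each of the 3.

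The other members of the group that acts at membranes, in secretion or on lipids did not pass. Hilpda, whose product sits on lipid droplets and inhibits their lipase, was at 10.23, 15.94 and 12.09 FPKM in Aged libraries and 9.64, 11.32 and 6.81 FPKM in Young libraries. Its libraries varied widely within each age and overlapped, and the log2 change of 0.43 ± 0.19 (SE) had an adjusted p of 0.421. It was 0.27 without Aged 2 and 0.24 without Young 3. Adm, which encodes the vasodilator peptide adrenomedullin, averaged 36.1 ± 2.69 FPKM in Aged and 35.3 ± 1.80 FPKM in Young libraries (SD, n = 3 each), with a 95% interval of -0.12 to 0.18 for the log2 change. Both carbonic anhydrases of the cell surface, which regulate pH, were scarce. Car9 was at 0.19, 0.10 and 0.38 FPKM in Aged libraries and at 0, 0.19 and 0 FPKM in Young libraries, or at most 4.03 estimated reads. Car12 was at 0.30, 0.45 and 0.20 FPKM in Aged and 0.29, 0.29 and 0.39 FPKM in Young libraries. At these read numbers small differences could not have been detected.

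**Figure D3:**
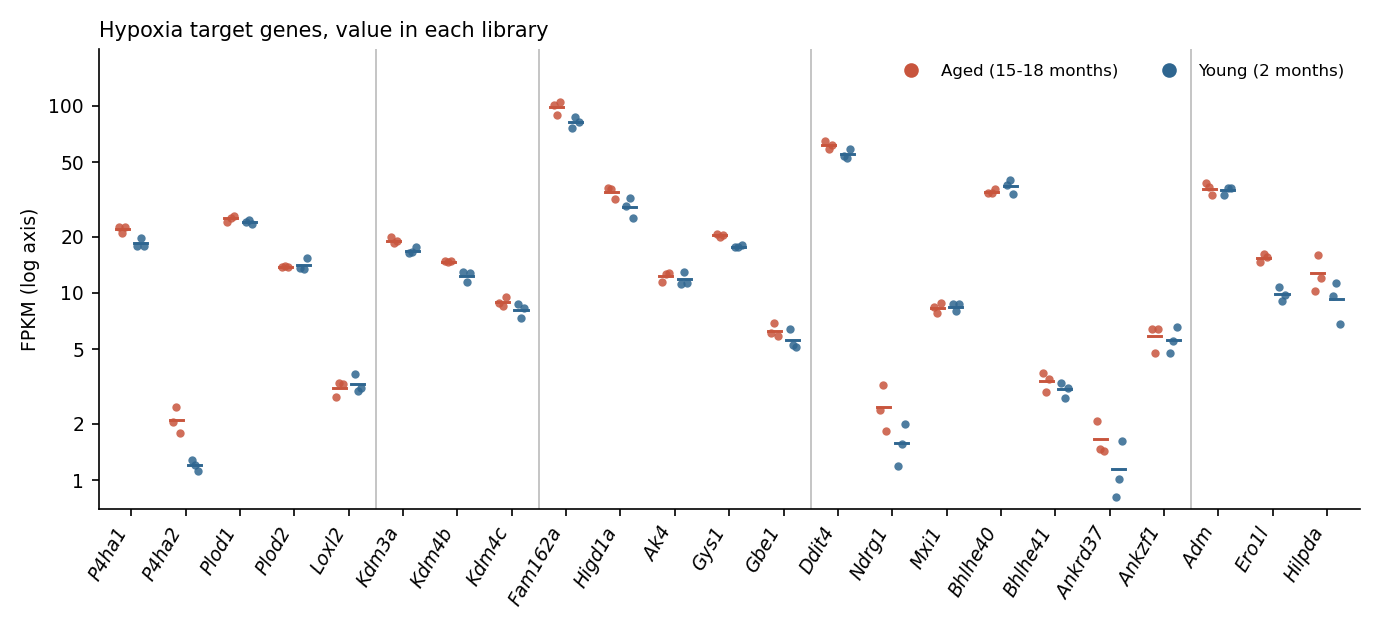
FPKM on a log axis of the 23 tested target genes, 1 point per library with Aged left of Young and bars at the group means, split by lines into collagen-modifying enzymes, histone demethylases, energy and glycogen genes, growth and transcription genes, and membrane, secreted, endoplasmic reticulum and lipid genes. P4ha1, P4ha2, Kdm3a, Kdm4b, Fam162a, Gys1 and Ero1l have all Aged points above all Young points.

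Of the 5 genes that modify collagen, limma called 0, with 2 higher and 0 lower by unadjusted p. P4ha1 and P4ha2 encode the catalytic subunits of the collagen prolyl hydroxylase, and lie at chr10:59323197-59373304 and chr11:54100924-54131668. P4ha1 was at 22.36, 20.97 and 22.42 FPKM in Aged libraries, against 17.79, 19.59 and 17.81 FPKM in Young libraries. P4ha2, far less abundant, was at 2.04, 2.47 and 1.78 FPKM in Aged and 1.28, 1.20 and 1.12 FPKM in Young libraries. For both genes all Aged libraries lay above all Young ones, by a ratio of means of 1.19 for P4ha1 and 1.75 for P4ha2, the largest ratio among the 32 tested members. The log2 changes were 0.24 ± 0.06 and 0.49 ± 0.14 (SE), and neither was called (adjusted p = 0.147 and 0.196). The log2 change of P4ha2 was 0.19 with a pseudocount of 5. P4ha2 rests on about 24.5 estimated reads per Aged library. The part of the fibroblast and pericyte markers, Col1a1 among them, in these values was not tested. The lysyl hydroxylases Plod1 (25.02 ± 0.924 FPKM in Aged, 23.9 ± 0.580 FPKM in Young) and Plod2 (13.8 ± 0.149 FPKM in Aged, 14.1 ± 1.06 FPKM in Young), and the lysyl oxidase Loxl2 (3.12 ± 0.304 FPKM in Aged, 3.26 ± 0.360 FPKM in Young), overlapped between the ages (SD, n = 3 each). Their adjusted p-values ran from 0.686 to 0.923.

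The 3 histone lysine demethylases use oxygen themselves and are induced by HIF. Kdm3a, which removes methyl groups from lysine 9 of histone H3, was at 19.79, 18.53 and 18.84 FPKM in Aged libraries, against 16.24, 16.47 and 17.66 FPKM in Young libraries. Kdm4b was at 14.73, 14.60 and 14.73 FPKM in Aged and 12.98, 11.43 and 12.71 FPKM in Young libraries. Neither gene had an overlap between the groups, with log2 changes of 0.17 ± 0.06 and 0.23 ± 0.06 (SE), but the adjusted p-values were 0.275 and 0.196. Kdm4c averaged 8.96 ± 0.548 FPKM in Aged and 8.14 ± 0.709 FPKM in Young libraries (SD, n = 3 each) and overlapped.

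Genes of energy metabolism and glycogen had a median log2 change of 0.19, and all 5 were above 0, without a call. Fam162a, a mitochondrial protein linked to cell death in hypoxia (chr16:36043844-36071561), was the most abundant of all members, at 100.59, 89.63 and 104.88 FPKM in Aged libraries and 76.03, 87.26 and 81.50 FPKM in Young libraries. The lowest Aged library lay just above the highest Young one, the log2 change was 0.27 ± 0.07 (SE), and the adjusted p was 0.155 (0.0692 to 0.365 with any 1 library left out). It shares 168 exon bases with Wdr5b on the opposite strand, which itself was at 0.587 ± 0.163 FPKM in Aged and 0.843 ± 0.523 FPKM in Young libraries (SD, n = 3 each). Gys1, the glycogen synthase of muscle and brain (chr7:45434839-45456617), was at 20.70, 19.84 and 20.43 FPKM in Aged and 17.61, 17.53 and 17.92 FPKM in Young libraries. The gap between the ages was several times the spread within them, yet the log2 change of 0.19 ± 0.05 (SE) had an adjusted p of 0.164. That spread (1.81% of the mean) lay under the 5.20% that read sampling alone would give, so it understates the error. Gys1 shares 310 exon bases with Ruvbl2 on the opposite strand, which is far more abundant (92.3 ± 7.25 FPKM in Aged and 90.5 ± 8.01 FPKM in Young libraries). Because the strand setting of the counting is not given, reads from shared exons cannot be told apart.

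Higd1a, a mitochondrial protein that eases the respiratory chain through low oxygen, was at 36.39, 35.75 and 31.82 FPKM in Aged libraries, against 29.28, 32.16 and 25.11 FPKM in Young libraries. Its groups overlapped by 1 library on each side (adjusted p = 0.292). Ak4, an adenylate kinase of the mitochondrial matrix (12.3 ± 0.740 FPKM in Aged, 11.8 ± 0.925 FPKM in Young), and Gbe1, the glycogen branching enzyme (6.27 ± 0.531 FPKM in Aged, 5.61 ± 0.669 FPKM in Young; SD, n = 3 each), overlapped as well.

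Among the 7 genes of growth control, transcription and less well known function, 0 were called by limma and all overlapped between the ages. At an unadjusted p under 0.05, 2 were higher. Ddit4, the REDD1 inhibitor of mTORC1, was at 64.41, 58.62 and 61.73 FPKM in Aged libraries and 54.15, 52.32 and 58.66 FPKM in Young libraries. A single pair of libraries kept the groups from separating, and the adjusted p was 0.287. Ndrg1, a stress-responsive gene, was at 2.36, 3.21 and 1.84 FPKM in Aged and 1.19, 1.56 and 2.00 FPKM in Young libraries (adjusted p = 0.419). Ankrd37 was at 2.07, 1.46 and 1.44 FPKM in Aged libraries and 0.81, 1.01 and 1.62 FPKM in Young libraries, or about 7.98 estimated reads in an Aged library. Its ratio of means was 1.45, and read sampling alone gives the value of each library an error of about 38.2%.

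The transcriptional repressors overlapped between the ages. Bhlhe40, a circadian and hypoxia-induced repressor, was at 34.04, 34.24 and 35.98 FPKM in Aged libraries and 37.88, 40.14 and 33.66 FPKM in Young libraries, with a log2 change of -0.09 ± 0.07 (SE, adjusted p = 0.656). Its paralogue Bhlhe41 was much less abundant, at 3.39 ± 0.391 FPKM in Aged and 3.05 ± 0.283 FPKM in Young libraries. The MYC antagonist Mxi1 averaged 8.34 ± 0.511 FPKM in Aged and 8.46 ± 0.407 FPKM in Young libraries, and Ankzf1, a factor of ribosome quality control, 5.87 ± 0.973 FPKM in Aged and 5.62 ± 0.896 FPKM in Young libraries (SD, n = 3 each). For these 3 genes the 95% intervals of the log2 change spanned 0.

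**Figure D4:**
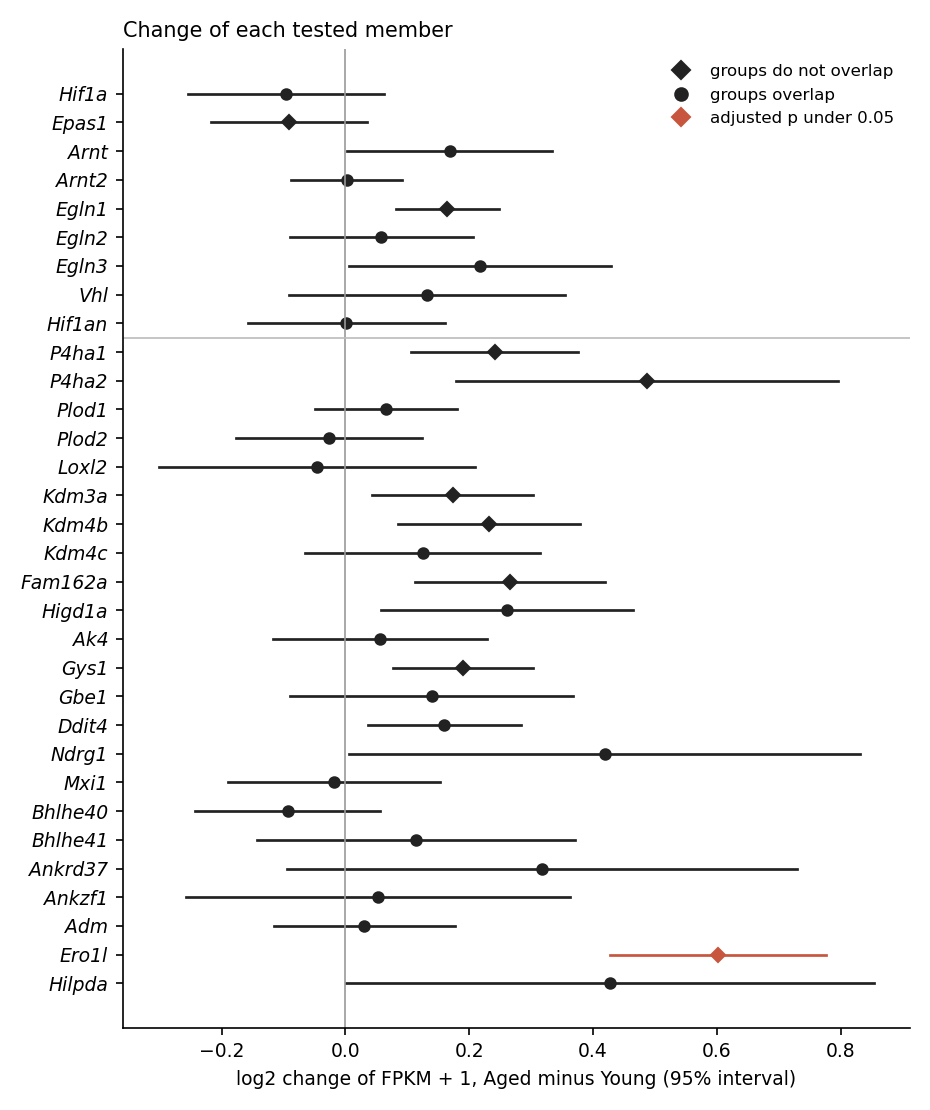
Log2 change of FPKM + 1, Aged minus Young, with its 95% interval for each of the 32 tested members; subunits and sensors stand above the line and target genes below it. Diamonds mark genes whose groups do not overlap, and the coloured diamond marks Ero1l, the single gene called (0.60 ± 0.08, SE).

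HIF binds the letters ACGTG or GCGTG, the core of the hypoxia response element, and the promoters of the members were searched for them because 7 targets and Egln1 were higher in every Aged library. RefSeq promoters (build GRCm38.p6, 250 bases before to 50 after a start) were matched for 29 of the 35 members by gene identifier. On either strand, 23 of the 29 held a core (79.3%), beside 69.2% of 9489 tested genes with a promoter. For ACGTG alone the shares were 18 of 29 (62.1%) and 29.7%, and for GCGTG alone 18 of 29 (62.1%) and 57.8%. Each of these 2 cores was in 14 of 20 target genes and in 4 of 9 subunits and sensors. The target genes were listed as HIF targets, so a higher share of cores among members can follow from the choice of list. The shares set members beside other genes and do not compare the ages, so a link between cores and the change with age was not tested. Counted by promoter, since some genes have several starts, ACGTG was in 48.7% of 39 member promoters and in 25.6% of 12103 promoters of tested genes. CACGTG, the E-box that holds ACGTG on both strands, was in 5 of the 29 members (17.2%) and in 11.9% of tested genes. The median GC content was 64.3% in member promoters and 61.3% in those of tested genes. Windows of 60 bases that lie outside annotated exons are shown for 5 of the 8 members whose Aged libraries were all higher, written 5′ to 3′ along the gene with core letters of either strand in capitals (CACGT and CACGC are the cores read from the other strand).
Ero1l (chr14:45318617-45318676, minus strand): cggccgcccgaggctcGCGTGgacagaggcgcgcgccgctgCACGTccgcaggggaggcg
P4ha1 (chr10:59323123-59323182, plus strand): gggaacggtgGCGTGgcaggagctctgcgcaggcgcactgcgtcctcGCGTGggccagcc
P4ha2 (chr11:54100811-54100870, plus strand): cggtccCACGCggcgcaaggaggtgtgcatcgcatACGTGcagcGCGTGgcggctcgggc
Fam162a (chr16:36071595-36071654, minus strand): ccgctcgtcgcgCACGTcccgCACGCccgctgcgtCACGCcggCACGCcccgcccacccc
Egln1 (chr8:124949349-124949408, minus strand): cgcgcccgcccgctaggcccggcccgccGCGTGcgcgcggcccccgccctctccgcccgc
Fam162a carried 4 cores in its window, P4ha2 3, Ero1l and P4ha1 2 each, and Egln1 1. Each window was picked within its promoter for the most cores. Members whose groups overlapped also had cores in windows picked in the same way. Kdm4c had 5, Adm, Ankrd37 and Hif1a 2 each, and Arnt and Plod1 1 each. Windows of genes outside the 35 were not counted. Kdm4b had no matched promoter. The promoter of Gys1 held none in its 300 bases, and that of Kdm3a held 1 in a stretch that overlaps an annotated exon. These matches describe the letters and do not show that HIF binds there.

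Genes around the pathway, from lists kept apart from the 35, gave the following counts, beside the shares of all tested genes (0.327% called higher and 0.395% lower, 6.3% higher and 5.55% lower at an unadjusted p under 0.05). Of the machinery that degrades HIF or acts as its coactivator (among them Cul2, Ep300 and Cited2), limma called 0 of 13 tested genes, with 3 higher and 0 lower at an unadjusted p under 0.05. Of 12 other oxygen-dependent dioxygenases, such as the Tet and Kdm5 enzymes and P4htm, it called 0, and 0 were under 0.05 unadjusted. Of 18 tested HIF targets outside glycolysis that are not among the 35, it called 2, both higher, and at an unadjusted p under 0.05 the counts were 6 higher and 2 lower. The 2 lower were Igfbp3, at 445.27, 438.43 and 438.40 FPKM in Aged and 478.71, 472.59 and 478.36 FPKM in Young libraries (adjusted p = 0.0859), and Cxcr4, at 4.51, 4.86 and 3.67 FPKM in Aged and 5.52, 6.82 and 5.13 FPKM in Young libraries (adjusted p = 0.311). Under quantile normalization, among the 16 alternative fits, 1 gene of this list was called lower. The 2 called higher were Vegfa and Bnip3. Vegfa, the angiogenic growth factor, was at 41.49, 45.99 and 41.51 FPKM in Aged libraries against 22.62, 23.46 and 20.55 FPKM in Young libraries (adjusted p = 0.00115). Bnip3, a mitophagy receptor, was at 15.97, 16.41 and 16.62 FPKM in Aged libraries against 11.36, 10.41 and 7.83 FPKM in Young libraries (adjusted p = 0.0385). Both Vegfa and Bnip3 separated the ages completely. Vegfa passed in all 16 alternative fits, whereas Bnip3 passed in 9, and in 2 of the 6 that left out 1 library, with an adjusted p of up to 0.138 (without Aged 3).

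Of 20 HIF-responsive genes of glycolysis and glucose or lactate transport, 11 rose and 0 fell, with a median log2 change of 0.229. Those that rose were the transporters Slc2a1, Slc2a3 and Slc16a3 and the enzymes Gpi1, Pfkl, Tpi1, Gapdh, Pgk1, Pgam1, Eno1 and Ldha. The count was 6 without Young 3 and 1 without limma's variance trend. The median of the 23 tested targets outside glycolysis was 0.16, and the difference between the lists was not tested. Because Ero1l, Ddit4 and Ndrg1 also respond to stress of the endoplasmic reticulum and to ATF4, 15 genes of those responses were looked at beside them. Trib3, a pseudokinase induced by ATF4, was the 1 gene called, at 4.36, 5.68 and 5.96 FPKM in Aged and 2.94, 2.49 and 2.14 FPKM in Young libraries (adjusted p = 0.0307), and 6 were higher and 0 lower at an unadjusted p under 0.05. Its call held in 7 of 15 alternative fits and in 1 of the 6 that left out 1 library, with an adjusted p of up to 0.125 there (without Aged 3). Which response the members follow was not tested.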

How the data were processed

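Each of the 6 libraries has a table of FPKM deposited by the authors with 2 decimals, per the file headers. The libraries were prepared from total RNA after rRNA removal, with a kit from MGI, per the labels' protocols. The submitters' processing notes list TopHat, Cuffdiff and mm10 but neither their versions nor their roles. The annotation, strand setting and scaling between libraries are not given in the sources used here. FPKM are not counts, so the test was limma 3.58.1 (R 4.3.3), two-sided, with eBayes set to a variance trend and without covariates. It was fitted to log2(FPKM + 1) of the 11912 genes averaging 1 FPKM or more over the 6 libraries, and Benjamini-Hochberg adjustment ran over all of them. The pseudocount of 1 understates changes of low genes.

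Reads per library were estimated from the steps between low values of genes with 1 transcript. At the best depth, 77.1% to 81.4% of values under 3.5 estimated reads were whole to within 0.15, as were 52.4% to 55.2% of higher values that did not set it, against 30% by chance. The estimated reads served only to judge sampling error. Replicates of a group differed by 1.28 to 1.68 times read sampling, so no table is a second copy of another. Libraries made from the same pool could differ by as much, so these values do not show whether the pools were separate.

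The members and lists were chosen with earlier results of these data known. The text names all 35 members and, of other lists, genes past the threshold and up to 3 others. Further cell type markers were named after their values were seen. Of the 17006 genes, 16962 were matched by identifier to RefSeq genes of GRCm38.p6, which is mm10. Simulated data (11703 genes) had 1.98% library variation beyond sampling, and 3.8% of calls there were false. Alternatives are given in the closing section. Python 3.11.15 was used for tables and figures (matplotlib 3.10.9, pandas 2.3.3).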

Additional observations from a re-analysis of the deposited data

How the results depend on the processing

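Of the 16 alternative fits, Ero1l passed in 12 and kept a log2 change of 0.46 to 0.66 in all, and no other member passed in any of them. The count of called targets was therefore 0 without limma's trend, 0 with a replicate block, and 0 to 1 with 1 library left out (0 without Aged 3 or Young 3). The count over all genes was 86, and it was 11 without the trend, 22 with the replicate block (21 shared with the 86) and 39 to 70 with 1 library left out (39 without Young 3; only leaving out Aged 2, at 70, kept it within 1.5 times). For subunits and sensors the count was 0 in all fits. Their median log2 change was 0.011 to 0.115 with 1 library left out, against 0.058 with all (0.115 without Young 1, 0.023 without Aged 1 and 0.011 without Young 3). The median of the targets was 0.125 to 0.192 with 1 library left out and 0.116 with a pseudocount of 5. The median of all genes was -0.01 to 0.003 under the scalings tried. Whether the replicate numbers pair the libraries was not settled. Same-numbered Aged and Young libraries deviated from their group means with correlations of 0.00795, -0.0719 and 0.108 across genes. Aged 1 and Aged 2 correlated better with another number, and Aged 3 best with its own. Deviations from a mean of 3 libraries depend on one another, so these correlations cannot exclude pairing. With the replicate block Ero1l had an adjusted p of 0.0714. Among the lists outside the 35, the 11 called glycolysis genes were 1 without the trend, 3 with the replicate block and 6 to 11 with 1 library left out. Counts of those lists were an addition made with the data already seen. Depth limits the 5 tested members under 5 FPKM, where read sampling alone gives 13.1% to 38.2% per library.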

Other observations

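The libraries did not share the extremes evenly. Of the 32 tested members, 12 had their highest value in Aged 1 and 10 their lowest in Young 3. Over all tested genes, 16.7% were highest in Aged 1 and 16.2% lowest in Young 3. Aged 2 held the highest value of 6 members (18.8%, against 18.2% of all tested genes) and Aged 3 that of 7 (21.9% against 17.8%).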
